A study of Mus musculus with 4 samples.

Results

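Subtelomeric regions of the mouse autosomes are described here from maps of accessible chromatin in pachytene spermatocytes. Peaks of 4 ATAC-seq libraries were merged into regions wherever they overlapped by at least 1 bp, and each library was credited with every region that one of its own peaks touched (the region was then held by it). Regions of chromosomes 1 to 19 whose midpoint lay within the last 5 Mb before the mm10 chromosome end were taken as subtelomeric. This gave 8929 regions, 7.03% of 127091 autosomal regions and part of 155908 regions in all, in 19 windows that together span 95 Mb or 3.86% of autosomal sequence. The windows were set by position alone. The regions in them are themselves peaks of these 4 libraries, and the set was chosen with earlier results of these data known.

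ATAC-seq maps open chromatin by cutting it with a transposase. Spermatocytes from mouse testis, for which the labels give no strain, age or genotype, were exposed to BMH-21, an RNA polymerase I inhibitor, at 2.5 µM for 12 h, or to its DMSO vehicle (mock), with 2 libraries per group and about 10000 cells per library. The comparison asks what differed in chromatin accessibility after exposure. The design text calls the libraries biological replicates but does not say whether they came from separate mice, so the spread between them may be partly technical.

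Mouse autosomes carry their centromere next to one end, so each window lies at the end far from the centromere. Telomeres are arrays of a short repeat, and the subtelomeric sequence inside them is often rich in genes and in duplicated families. In meiotic prophase, telomeres attach to the nuclear envelope and chromosome movements driven from there help homologues pair. By pachynema the autosomes are fully synapsed.

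Peaks numbered 109230 and 117905 in the 2 mock lists but 51234 and 55459 in those of BMH-21, so every count below was made in lists of unequal length. Peaks near the ends of 8 pachytene marker genes were found for 8 and 8 of them in the mock and 8 and 7 in the BMH-21 lists. Other cell types of the testis also had peaks at their markers. Of 4 genes each, 4 and 4 Sertoli cell markers had a peak in the mock lists and 4 and 3 in the BMH-21 lists. Leydig cell markers gave 3 and 3 against 2 and 2, and so did spermatogonial markers. Spermatid markers were held at 2 and 2 genes in the mock and 0 and 0 in the BMH-21 lists, and leukocyte markers at 3 and 3 against 0 and 0. Over all autosomal protein-coding genes with such a peak in both mock lists, 11.7% of 14371 had none in either BMH-21 list. Counts over 4 markers do not show how many cells of a type each library held. The part of these cells in the results was not tested. Absence of a peak means only that the signal did not reach the peak caller's threshold, and it does not show that the chromatin was closed.

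Sequences of 8 promoters show subtelomeric sites with a peak in all 4 libraries, in the mock libraries or in the BMH-21 libraries. They are the strongest promoters of each class, where the class counts peaks overlapping the promoter's own window in the RefSeq promoter table (GRCm38.p6), which can differ from the class of the whole region or gene. Each is written 5′ to 3′ as the 250 bases before a transcript start, in lower case with CpG dinucleotides in capitals. The first 3 had a peak in all 4 libraries. Pcca encodes the alpha subunit of propionyl-CoA carboxylase, Sfxn4 a mitochondrial sideroflexin and Dhcr7 the enzyme of the last step of cholesterol synthesis. The Pcca start lies inside the gene body.
Pcca, chr14:122534078-122534327, plus strand: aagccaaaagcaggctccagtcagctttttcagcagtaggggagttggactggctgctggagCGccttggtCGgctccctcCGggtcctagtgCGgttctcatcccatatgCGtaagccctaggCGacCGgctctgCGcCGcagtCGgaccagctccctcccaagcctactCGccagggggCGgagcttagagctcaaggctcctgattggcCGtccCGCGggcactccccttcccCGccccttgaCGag
Sfxn4, chr19:60861429-60861678, minus strand: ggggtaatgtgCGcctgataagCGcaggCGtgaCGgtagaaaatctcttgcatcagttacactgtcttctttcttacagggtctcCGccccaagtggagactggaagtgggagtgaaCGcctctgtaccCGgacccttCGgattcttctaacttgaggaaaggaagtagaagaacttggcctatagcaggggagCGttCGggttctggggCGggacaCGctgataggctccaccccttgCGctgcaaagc
Dhcr7, chr7:143822917-143823166, plus strand: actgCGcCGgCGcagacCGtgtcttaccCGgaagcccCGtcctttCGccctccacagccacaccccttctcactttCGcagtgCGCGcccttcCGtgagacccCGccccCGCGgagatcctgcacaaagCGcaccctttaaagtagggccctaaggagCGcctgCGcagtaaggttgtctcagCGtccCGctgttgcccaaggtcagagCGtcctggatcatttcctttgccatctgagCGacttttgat
The deposited fold of a peak is the authors' ratio of its summit signal to background around it within 1 library. It is not normalised between libraries, and here it describes or ranks peaks within 1 list. At the Pcca start it was 16.6 and 15.2 in the mock and 15.8 and 17.6 in the BMH-21 lists. Sfxn4 had folds of 12.0 and 12.9 in the mock and 13.6 and 15.4 in the BMH-21 lists. Dhcr7 had 12.6 and 14.9 in the mock and 12.5 and 12.99 in the BMH-21 lists. These 3 sequences held 17, 13 and 21 CpG dinucleotides.

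The next 3 promoters had a peak in both mock libraries and in neither BMH-21 library, a class called mock-only below. Nalcn encodes a sodium leak channel, Cd34 a sialomucin of blood and vessel progenitors, and Itgb8 the beta 8 integrin subunit, which activates latent TGF-beta.
Nalcn, chr14:123627145-123627394, minus strand: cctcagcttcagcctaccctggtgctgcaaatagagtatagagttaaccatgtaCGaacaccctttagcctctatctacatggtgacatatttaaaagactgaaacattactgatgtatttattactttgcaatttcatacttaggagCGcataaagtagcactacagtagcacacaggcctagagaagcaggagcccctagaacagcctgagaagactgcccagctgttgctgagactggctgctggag
Cd34, chr1:194938571-194938820, plus strand: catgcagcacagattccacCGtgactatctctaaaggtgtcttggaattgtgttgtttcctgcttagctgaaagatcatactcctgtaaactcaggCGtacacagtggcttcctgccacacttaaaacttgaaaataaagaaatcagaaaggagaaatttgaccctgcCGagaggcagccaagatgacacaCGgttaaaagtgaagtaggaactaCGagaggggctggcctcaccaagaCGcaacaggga
Itgb8, chr12:119238277-119238526, minus strand: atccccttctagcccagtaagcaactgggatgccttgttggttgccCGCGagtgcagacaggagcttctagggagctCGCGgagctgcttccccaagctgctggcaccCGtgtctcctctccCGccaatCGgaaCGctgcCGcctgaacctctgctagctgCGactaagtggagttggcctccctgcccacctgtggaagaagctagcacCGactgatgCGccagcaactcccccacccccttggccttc
Nalcn had folds of 11.6 and 11.6, Cd34 of 11.6 and 11.1 and Itgb8 of 9.97 and 10.9 in the 2 mock lists. Their sequences held 2, 6 and 12 CpG dinucleotides. At Nalcn, BMH-21 2 had a peak with a fold of 4.30 just outside the promoter window and within the same region, so that region is not among the mock-only ones. The last pair was found by both BMH-21 libraries and by neither mock library (BMH-21-only). 4930591A17Rik is a gene named only by its clone, and Smug1 encodes a uracil DNA glycosylase of base excision repair.
4930591A17Rik, chr2:179414686-179414935, plus strand: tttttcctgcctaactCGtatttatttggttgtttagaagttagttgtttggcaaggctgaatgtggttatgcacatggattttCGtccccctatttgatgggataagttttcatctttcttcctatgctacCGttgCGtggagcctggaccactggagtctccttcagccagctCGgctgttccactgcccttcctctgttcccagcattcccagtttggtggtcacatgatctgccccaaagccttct
Smug1, chr15:103163285-103163534, minus strand: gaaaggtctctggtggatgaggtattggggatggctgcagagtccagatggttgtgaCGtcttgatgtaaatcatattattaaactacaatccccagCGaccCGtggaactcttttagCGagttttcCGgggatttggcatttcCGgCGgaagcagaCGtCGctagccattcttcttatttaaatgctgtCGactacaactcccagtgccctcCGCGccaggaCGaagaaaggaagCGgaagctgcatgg
4930591A17Rik had folds of 8.55 and 8.50 and 5 CpG dinucleotides. Smug1 had folds of 8.07 and 7.54 and 14 CpG dinucleotides. The printed Smug1 start lies inside the gene, and peaks at the gene's ends were found in all 4 libraries, with folds of 4.01 and 3.81 in the mock and 4.72 and 4.91 in the BMH-21 lists. CpG content across all subtelomeric promoters is described with the promoters below.

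The windows were denser in accessible regions than the rest of the autosomes in every library, and both BMH-21 libraries held far fewer subtelomeric regions than both mock libraries. The mock libraries held 6276 and 6650 of the 8929 regions, and the BMH-21 libraries 2225 and 2359. Per Mb of window this was 66.1 and 70.0 in the mock and 23.4 and 24.8 in the BMH-21 libraries, so the groups did not overlap. The means were 68.0 ± 2.78 and 24.1 ± 0.997 regions per Mb (SD, n = 2), a BMH-21/mock ratio of 0.355, with p = 0.33 in a two-sided exact permutation test. With 2 against 2 libraries 0.33 is the smallest p this test allows, and it is the p of each comparison of the groups below. When all lists were shortened to equal length by −log10 q, the ratio was 0.826. That cut took whole lists, sex chromosomes included, so the autosomal parts need not be of equal length after it. The ratio of the rest of the autosomes was not computed in this setting, so 0.826 alone does not describe the windows against the rest.

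The rest of the autosomes held 34.7 and 37.6 regions per Mb in the mock and 13.4 and 14.3 in the BMH-21 libraries, a ratio of 0.383. Density in the windows was therefore 1.90 and 1.86 times that of the rest in the mock libraries and 1.75 and 1.73 times in the BMH-21 libraries. Put as a share, 7.09% and 6.96% of all autosomal regions of a mock library were subtelomeric, against 6.56% and 6.50% in the BMH-21 libraries. The exact 95% intervals ran from 6.80% to 7.26% over both mock libraries and from 6.25% to 6.83% over both BMH-21 libraries, and cover counting error only. The group means differed by -0.49 percentage points (p = 0.33, exact permutation test). This difference shrank to -0.13 points with lists of equal length and was -0.26 points for the last 2.5 Mb. Subtelomeric peaks had a median width of 357 and 349 bp in the mock and 412 and 369 bp in the BMH-21 lists, and they covered 3.28% and 3.41% of the windows against 1.37% and 1.38%. Their median fold lay at percentile 38.0 and 39.0 of the whole mock lists, below the 46.1 and 46.2 of the other autosomal peaks, and at 56.1 and 57.0 of the BMH-21 lists against 62.5 and 62.0.

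**Figure D1:**
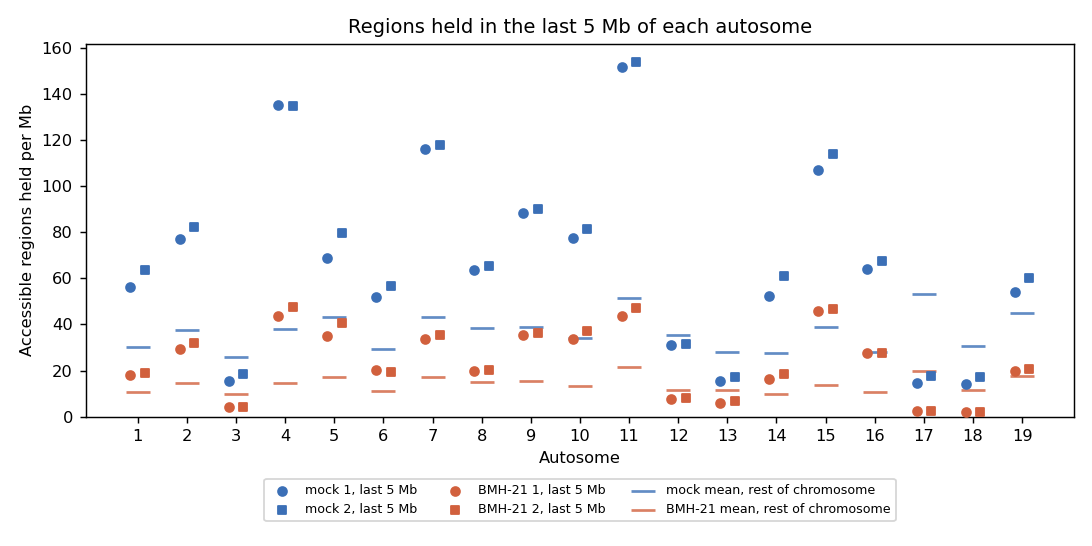
Accessible regions held per Mb in the last 5 Mb of each autosome, by library (circles and squares, replicates 1 and 2; blue mock, orange BMH-21), with dashes for the group means in the rest of the same chromosome. Both orange points lie below both blue points on all 19 chromosomes, and the mock windows of chromosomes 3, 12, 13, 17 and 18 lie below their blue dash.

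Chromosome ends differed widely in density. The window of chromosome 11 was the densest in the mock libraries, with 151.6 and 154 regions per Mb, followed by that of chromosome 4 with 135.2 and 134.8. The lowest were chromosome 18, with 14 and 17, and chromosome 13, with 15.4 and 17. In the BMH-21 libraries the densest windows were those of chromosome 15, with 45.8 and 46.8 regions per Mb, and chromosome 4, with 43.8 and 47.6. The lowest were chromosome 18, with 1.8 and 2.2, and chromosome 17, with 2.6 and 2.4. In 14 of 19 windows both group means exceeded those of the rest of the chromosome, and in all 19 both BMH-21 libraries held fewer regions than both mock libraries. The window of chromosome 4 was 3.57 times as dense as the rest of its chromosome in the mock libraries, and that of chromosome 17 0.306 times as dense.

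Among the 19 windows the BMH-21/mock ratio of densities was lowest on chromosomes 18 (0.129) and 17 (0.153) and highest on chromosomes 5 (0.509) and 10 (0.445). The rests of the chromosomes spanned 0.327 to 0.416. They hold far more regions than the windows, so counting error alone makes the range of the windows wider. The BMH-21 libraries held 9 and 11 regions in the window of chromosome 18 and 13 and 12 in that of chromosome 17. The windows of chromosomes 17 and 18 contain 4 and 8 protein-coding genes, among the fewest, and 62.5% and 53.7% of their regions in both mock libraries were intergenic. On chromosome 17 the longest stretch without a held region was 369 and 270 kb in the mock libraries and 1904 and 3433 kb in the BMH-21 libraries. Across the 19 windows, protein-coding genes per Mb went with the mock density (Pearson r = 0.788, Spearman rho = 0.881, n = 19) and with the BMH-21 density (0.812 and 0.886). These are descriptions, since the 19 windows share the same libraries, list lengths and annotation. The windows carried 11.4 protein-coding genes per Mb, and the rest of the autosomes 8.27.

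Of 4882 subtelomeric regions held by both mock libraries, 3228 were mock-only, 66.1% (exact 95% interval 64.8 to 67.4%), where 63.7% of all autosomal regions in both mock libraries were called mock-only. In the rest of the autosomes the share was 63.5%. The difference was 2.61 percentage points. A second measure took the regions of 1 mock library and the share of them absent from 1 BMH-21 library. Windows minus rest, it was 2.64, 2.88, 1.97 and 2.04 points in the 4 combinations, which reuse the same 4 libraries and are not independent. The 2.61 points did not set the windows apart from the sequence next to them. Regions 5 to 10 Mb from the end were mock-only in 66.9% of cases, which turns the difference to -0.80 points. For the last 2.5 Mb alone the difference was 0.548 points.

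Weaker mock peaks were more often without a BMH-21 peak, and the windows held more of the weak ones. Regions were divided into 10 classes by the mean percentile of their fold in the 2 mock lists. In the weakest class 85.2% of 674 subtelomeric regions were mock-only, and in the strongest 15.4% of 306, against 84.4% and 13.3% in the rest. When the rest was weighted to the windows' makeup of location and strength, its expected share was 68.1%, and the windows differed from it by -1.96 points. With location alone the difference was 1.07 points, so the sign depends on whether strength is included, and with strength ranked by −log10 q instead of the fold it was -0.0878. With summit windows and with a minimum overlap of 50% it was -0.67 and -0.95.

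In the reverse direction, 365 of 1782 subtelomeric regions held by both BMH-21 libraries were BMH-21-only, 20.5% (18.6 to 22.4%), against 19.5% of all such autosomal regions and 19.4% in the rest. The share was 34.8% with lists of equal length and 34.5% with summit windows, where the rest gave 31.9% and 33.3%. All 4 libraries held 1288 of the 8929 subtelomeric regions, 14.4%, and the same was true of 16.2% in the rest. A single library held 3419, 38.3%, of which 1289 and 1610 were in mock 1 and mock 2 and 217 and 303 in BMH-21 1 and BMH-21 2.

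**Figure D2:**
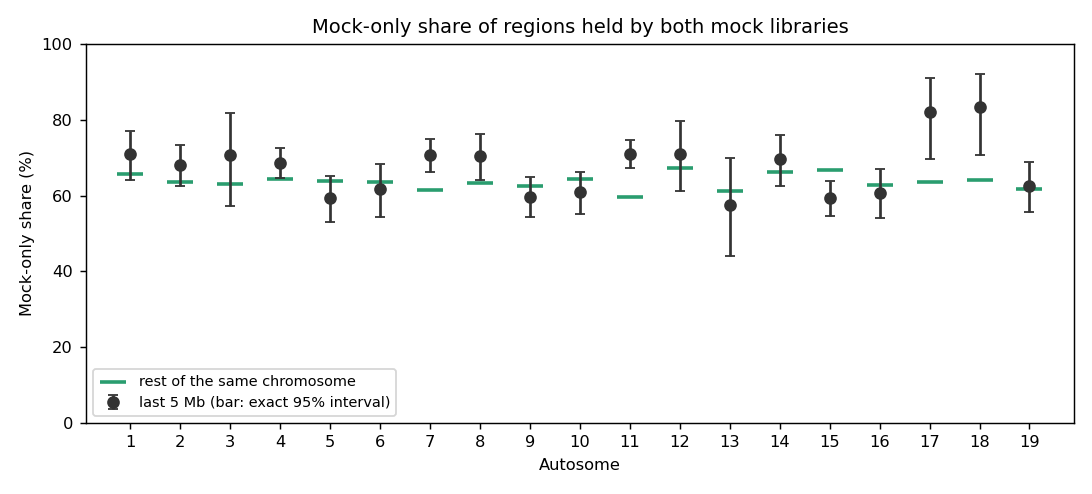
Mock-only share of the regions held by both mock libraries, in percent, for the last 5 Mb of each autosome (points with exact 95% intervals) and the rest of the same chromosome (dashes). Chromosomes 17 and 18 stand highest, at 82.1% and 83.3%, with the widest distance above their dashes.

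By chromosome, the mock-only share ranged from 57.4% of 61 regions on chromosome 13 and 59.2% of 265 on chromosome 5 to 82.1% of 56 on chromosome 17 and 83.3% of 54 on chromosome 18. Its mean over 19 chromosomes was 67.3% ± 7.40 (SD), against a mean of 63.6% ± 1.91 for the rests. A window had 54 to 614 regions in both mock libraries, far fewer than its rest. The SD of the windows thus contains more counting error, and the SDs are not directly comparable. Chromosome 18 exceeded its own rest by 19.2 points and chromosome 17 by 18.6 points. Chromosome 15 was the lowest, at -7.34 points, followed by chromosome 5 at -4.46 points. Of the 19 windows, 12 lay above and 7 below their rest, and the interval of 6 lay wholly above it and of 1 wholly below. Without chromosomes 17 and 18, a setting chosen after seeing the data, the pooled difference was 2.25 points. The share of both-mock regions at gene ends went with a lower mock-only share over the 19 windows (Pearson r = -0.688, Spearman rho = -0.586), as a description.

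Subtelomeric regions of the BMH-21 libraries lay more often at gene ends. A region was placed at a gene end if its midpoint lay no more than 1 kb from the start or end position of a gene, otherwise in a gene body or between genes. The annotation table gives no transcript direction for these ends, so start and end sites are counted together. Gene-end regions made up 21.3% and 20.4% of the subtelomeric regions of the mock libraries and 37.4% and 36.9% of those of the BMH-21 libraries, so the groups did not overlap. The means were 20.8% ± 0.667 and 37.2% ± 0.333 (SD, n = 2), a difference of 16.3 points (p = 0.33, exact permutation test), which was 4.65 points with lists of equal length. Gene-body regions made up 53.4% and 53.7% of the mock and 37.8% and 38.4% of the BMH-21 libraries' subtelomeric regions, and intergenic ones 25.2% and 25.97% against 24.9% and 24.6%. The rest of the autosomes moved in the same direction, with gene-end regions at 24.2% and 23.1% of the mock and 42.8% and 41.1% of the BMH-21 libraries' regions, so it was not particular to the windows.

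The mock-only share was lowest at gene ends in the windows as elsewhere. It was 35.1% of 1186 gene-end regions (32.4 to 37.9%), 77.7% of 2538 gene-body regions (76.0 to 79.3%) and 72.6% of 1158 intergenic regions (70.0 to 75.2%). The rest of the autosomes gave 31.3%, 75.04% and 77.7%. The intergenic share of the windows thus lay below that of the rest, and the other classes lay above it, each by more than its counting interval. BMH-21-only regions made up 8.01%, 26.2% and 35.6% of the gene-end, gene-body and intergenic subtelomeric regions in both BMH-21 libraries, against 7.20%, 26.5% and 38.8% in the rest.

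**Figure D3:**
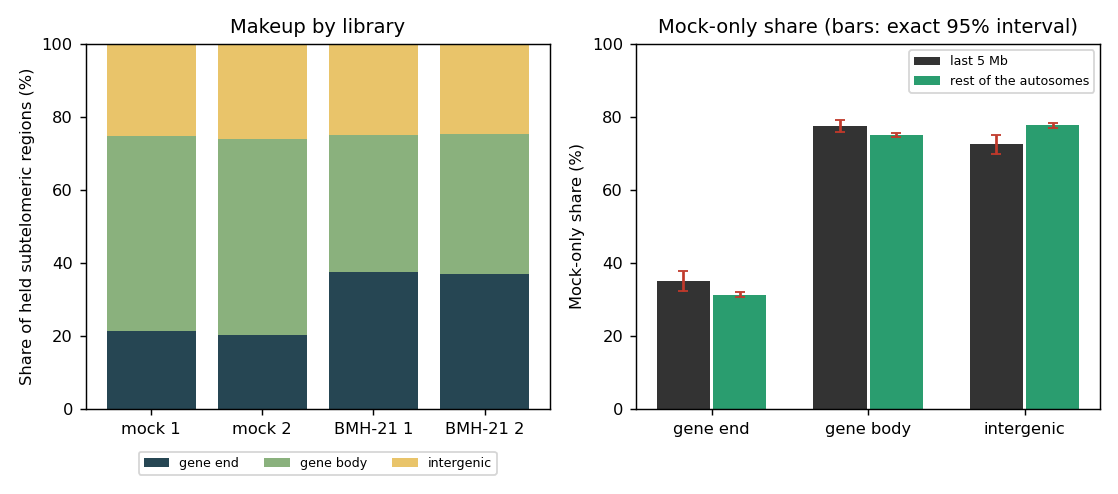
Left, makeup of the subtelomeric regions held by each library, in percent, by position relative to genes. Right, mock-only share of regions held by both mock libraries, in percent, for the last 5 Mb and the rest of the autosomes, with exact 95% intervals. Gene-end regions fill a larger part of the BMH-21 bars (37.4% and 36.9%) than of the mock bars (21.3% and 20.4%), and the intergenic pair at the right is the one in which the windows lie below the rest.

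Density did not rise steadily toward the telomere. The last 1 Mb held 45.7 and 49.2 regions per Mb in the mock and 17.8 and 18.4 in the BMH-21 libraries, fewer than any other 1 Mb step of the window. The densest step, 2 to 3 Mb from the end, held 79.6 and 82.1 in the mock libraries, and the BMH-21 libraries were highest at 3 to 4 Mb, with 26.8 and 29.5. From 10 to 12 Mb both groups were lower than at the end itself, and no break was seen at 5 Mb. Density is given per Mb of the whole window although no region midpoint lay closer than 100 kb to an end, since mm10 chromosomes end in a stretch without sequence.

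The group classes differed within the window. In the last 1 Mb, 425 of 718 regions in both mock libraries were mock-only, 59.2% (55.5 to 62.8%), against 67.3% (65.9 to 68.7%) from 1 to 5 Mb. BMH-21-only regions also took a smaller share there: 23 of 275 were BMH-21-only, 8.36% (5.38 to 12.3%), against 22.7% (20.6 to 24.9%) from 1 to 5 Mb and 29.2% at 3 to 4 Mb. The 23 regions were spread over the chromosomes, with at most 5 of them on 1 chromosome, chromosome 15. The same contrast was seen with summit windows, at 22.4% against 36.6%, with lists of equal length, at 18.4% against 37.9%, and with a minimum overlap of 50%, at 13.5% against 30.5%. It was 16.997% against 31.1% without BMH-21 replicate 1, 14.7% against 28.5% without BMH-21 replicate 2 and 12.7% against 27.4% without mock replicate 2. Gene-end regions made up 30.9% of the both-mock regions of the last 1 Mb and 18.8% at 3 to 4 Mb, and whether this bears on the contrast was not tested. The 1 Mb limit was singled out after its values were seen.

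**Figure D4:**
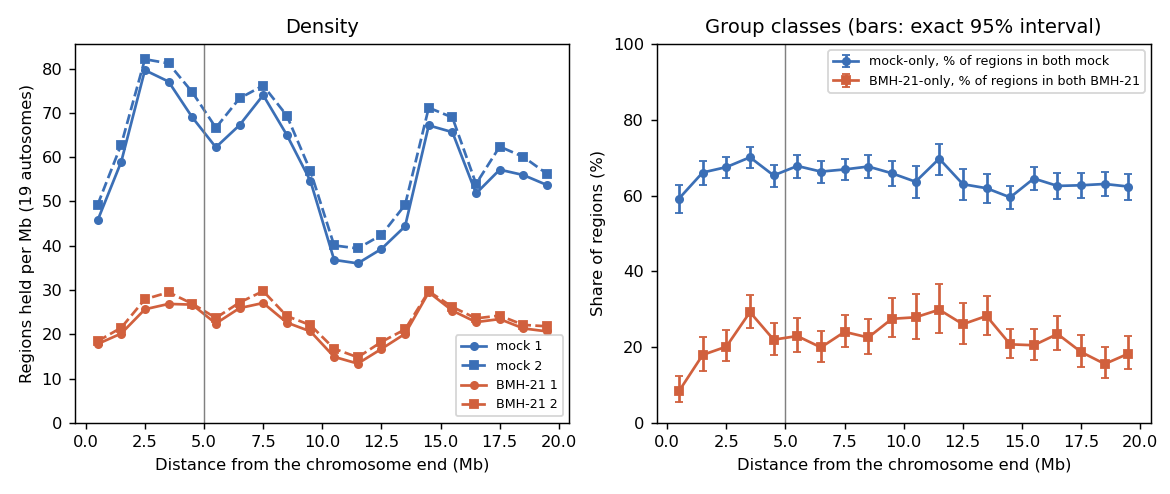
Left, regions held per Mb over the 19 autosomes in steps of 1 Mb from the chromosome end, by library. Right, mock-only regions in percent of those in both mock libraries and BMH-21-only regions in percent of those in both BMH-21 libraries, with exact 95% intervals; the grey line marks 5 Mb. The BMH-21-only share is lowest at the left edge, 8.36%, and reaches 29.2% at 3 to 4 Mb.

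Most assembled chromosome ends carried a peak region at the very edge of the sequence, and most of these regions were found in all 4 libraries. On 15 of 19 autosomes the outermost region had its midpoint within 101 kb of the chromosome end. All 4 libraries held 13 of these 15, whereas they held 14.4% of subtelomeric regions in general. The 13 regions were 328 to 1225 bp wide, and 12 were intergenic. Their median fold was 11.01 and 11.6 in the mock lists, at percentile 97.9 and 98.3 of those lists, and 6.78 and 7.35 in the BMH-21 lists, at percentile 79.7 and 82.6. Folds of different lists are not on 1 scale, so these values show the rank of the edge regions within each list. This set was chosen after its values were seen. The 14.4% covers regions of every strength, and 38.3% of all subtelomeric regions were held by a single library. In the strongest of the 10 classes, 15.4% of 306 subtelomeric regions in both mock libraries were mock-only. That is a different measure from the share held by all 4, since a region may be held by 1 BMH-21 library. Whether the edge regions differed from other regions of like strength was not tested.

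The edge region of chromosome 16, chr16:98107086-98107644, had a fold of 21.4 and 21.8 in the mock lists, the highest of any subtelomeric peak there, and of 7.15 and 7.82 in the BMH-21 lists. The edge of chromosome 12, chr12:120028319-120028797, had 15.7 and 18.4 against 9.71 and 11.5, and that of chromosome 1, chr1:195371055-195371813, 14.6 and 16.03 against 8.43 and 9.58. Not all edges were strong: on chromosome 19 the folds were 3.61 and 4.70 against 4.40 and 4.89. Chromosomes 18 and 5 were the exceptions in class. The edge region of chromosome 18, chr18:90601798-90602303, had folds of 19.8 and 21.6 in the mock lists and no peak in either BMH-21 list. The next region inward that all 4 libraries held, chr18:90579406-90580430 at an end of the predicted gene Gm45871, had 8.30 and 8.28 in the mock and 15.1 and 16.04 in the BMH-21 lists. On chromosome 5 the outermost region was held by mock 2 alone, with a fold of 4.14. The genome sequence at these edges was not used here, and how reads of repeated sequence were placed is not given in the sources used here. Whether the edge peaks mark open chromatin or the placing of reads at the assembly edge was not tested.

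Between 100 and 110 kb from the end lay 24 regions. The 13 of them held by all 4 libraries were the edge regions described above, and none of the others in this band was held by all 4. Further in, the share held by all 4 was 25.8% of 93 regions between 110 and 200 kb, 14.4% of 367 between 200 and 500 kb and 21.5% of 685 between 500 and 1000 kb. In the band from 100 to 110 kb the BMH-21 libraries held only 16 and 17 regions and the mock libraries 17 and 22. Per Mb this was 84.2 and 89.5 against 89.5 and 115.8, so that mock 1 equalled BMH-21 2. The 13 edge regions, chosen after their values were seen, count for every library in this band. Its group values are therefore not separate from that choice. From 110 to 200 kb the values per Mb were 18.7 and 19.9 against 39.2 and 46.8.

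**Figure D5:**
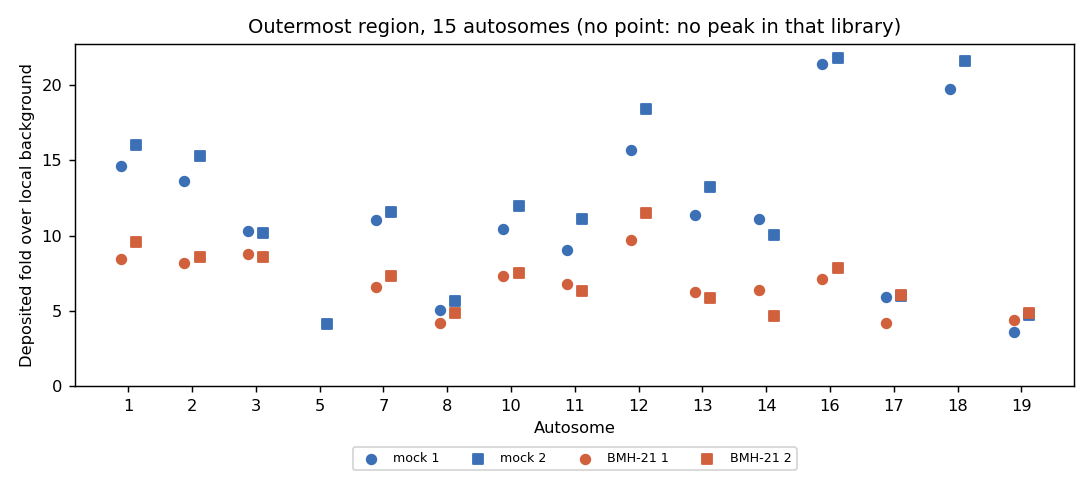
Deposited fold of the outermost region on the 15 autosomes where it lies within 101 kb of the chromosome end, by library (blue mock, orange BMH-21; circles and squares, replicates 1 and 2). A missing point means no peak: chromosome 18 has blue points only, at 19.8 and 21.6, and chromosome 5 has mock 2 only, at 4.14. Folds are comparable within a library, not between libraries.

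The strongest mock-only subtelomeric regions, ranked by percentile of the fold, lay mostly away from gene ends. After the chromosome 18 edge came chr19:59987340-59988053, with folds of 14.4 and 13.2. It is intergenic, and the nearest gene, Rab11fip2, which encodes a Rab11 effector of endosome recycling, lies 43684 bp away. The next was chr2:179787689-179788360 inside Cdh4, the gene of R-cadherin, with 12.5 and 12.3. An intergenic region near the predicted gene Gm35405, chr10:130523336-130524109, had 11.04 and 11.8. The Cd34 region, chr1:194938732-194939631, was the only gene-end region of the 6. It overlaps the promoter printed above. Inside Lrrc7, which encodes the synaptic scaffold densin-180, chr3:158101247-158102420 had folds of 10.5 and 12.4.

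The strongest BMH-21-only region was chr5:148191404-148191858 inside Mtus2, a gene of a microtubule-associated protein, with folds of 16.4 and 15.3, at percentiles 99.951 and 99.8 of the BMH-21 lists. An intergenic region 4474 bp from Gata5, which encodes a transcription factor of heart and endoderm, chr2:180320253-180320614, had 12.0 and 13.7. Mbnl2, the gene of a muscleblind splicing regulator, held chr14:120396993-120397304 with 9.49 and 12.4. The other members of this group lay in Gm40804, near 6720468P15Rik and in Dscam, a neuronal adhesion gene, with folds from 9.18 to 11.4. None of the 6 lay at a gene end. Of the 6 strongest regions held by all 4 libraries, 4 did, at Sfxn4, Nadsyn1 with Dhcr7, Isl1 and Lima1, and the other two lay inside Pcca.

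The windows contained 1085 protein-coding genes, and a gene was said to hold a peak if a peak lay within 1 kb of either of its ends. The mock libraries held 79.4% and 79.2% of them and both BMH-21 libraries 65.3%. Both mock libraries had such a peak at 834 genes, of which 121 had none in either BMH-21 library, 14.5% (12.2 to 17.1%), beside 11.7% for all autosomal protein-coding genes and 11.6% (11.02 to 12.1%) for those outside the windows. Chromosome 7 contributed 26 mock-only genes of 95, 27.4%, and without it, as a setting chosen after seeing the data, the share was 12.9% against 11.4%. With lists of equal length the share was 7.76% against 7.16%. All 4 libraries held 666 of the 1085 genes, and 187 had no peak.

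Ranked by peak strength, the first 10 genes of the mock-only class were Cd34, Itgb8, Emb, Olfr807, Lrrc7, Kcnj6, Fgf10, Tmem88b, Flt3 and Krt2. Several are known from other tissues. Cd34 and Flt3, a receptor kinase of blood progenitors, are genes of the haematopoietic lineage, Lrrc7 and Kcnj6, a G protein-gated potassium channel, of neurons, and Krt2 of epidermis. Emb, which encodes the transporter partner embigin, had folds of 10.7 and 9.45. Fgf10, a growth factor of limb and lung buds, had 7.49 and 7.72, and Flt3 had 6.94 and 7.38. As given above, leukocyte markers had peaks at 3 of 4 genes in each mock list and at 0 in each BMH-21 list, and the part of such cells in these calls was not tested. Olfr807 lost its class with a 500 bp limit and with summit windows, and Kcnj6, Tmem88b and Flt3 lost it with a 2.5 kb limit.

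BMH-21-only genes were few: 7 of 199 genes without a peak in either mock library, 3.52%, beside 2.85% over all autosomes. Rpl22, which encodes a protein of the large ribosomal subunit, had folds of 8.35 and 8.92. It left this class with a 500 bp limit, a 2.5 kb limit and summit windows. The clone-named gene 4930591A17Rik, whose promoter is printed above, had 8.55 and 8.50. Mbnl2 had 7.42 and 6.45, and Faim2, a gene that inhibits Fas-mediated apoptosis, 6.30 and 7.21. The peaks of Pcp4, Tnfrsf26 and C1ql4 were weaker, with folds from 3.03 to 4.95. Tnfrsf26 left the class with a 500 bp limit. With a 2.5 kb limit 3 of the 7 kept the class, 4930591A17Rik, Mbnl2 and Tnfrsf26.

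Of the 10 strongest genes held by all 4 libraries, Gtsf1, a cofactor of the piRNA pathway that silences transposons, had folds of 13.5 and 15.4 in the mock and 11.7 and 11.9 in the BMH-21 lists. Topaz1, needed for male meiosis, had 12.1 and 13.7 against 11.4 and 11.8, and Ccdc172 had 16.3 and 14.8 against 10.5 and 11.7. The others were Sfxn4, Dhcr7 and its neighbour Nadsyn1, which encodes NAD synthetase and shares the same region, the LIM homeobox gene Isl1, Lima1, Lars2 and Ggact. Isl1 had 12.8 and 13.5 in the mock and 12.9 and 12.8 in the BMH-21 lists. Lars2, the mitochondrial leucyl-tRNA synthetase gene, had 11.1 and 10.7 against 12.5 and 14.5. These 10 genes kept their class under all 9 alternatives run for them.

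Mock-only members of gene groups of the chromosome ends were counted and are read beside the 11.7% of all autosomal protein-coding genes, and differences between the groups were not tested. The imprinted list also holds noncoding RNA genes and the chromosome 16 list pseudogenes, so the 11.7% is not an exact match. Brwd1, Morc3, Cdk2, Chaf1b and Prdm15 are each in more than 1 list, so the counts are not independent. The lists also differed in peak strength. For members held by both mock libraries, the median fold percentile was 58.8 for keratins, 67.4 for HoxC and 51.0 for the imprinted cluster. It was 85.1 for chromosome 16, 85.2 for genome maintenance, 87.6 for germ cell and 89.0 for olfactory receptor genes. The part of strength in these counts was not tested. The keratins of distal chromosome 15, the filament genes of epithelia, were mock-only at 8 of 20 members with a peak in both mock libraries. These were Krt2, with folds of 7.43 and 6.92, Krt75, with 5.87 and 6.29, Krt5, with 4.57 and 5.72, Krt83, Krt71, Krt90, Krt80 and Krt4. Krt1 was held by all 4 libraries with 7.03 and 6.69 in the mock and 6.69 and 8.01 in the BMH-21 lists, as were Krt88, Krt8, Krt78, Krt87, Krt79 and Krt7. With lists of equal length 3 of 14 keratins were mock-only. The neighbouring HoxC cluster, which patterns the body axis, had 1 mock-only gene of 8, Hoxc9, with folds of 3.01 and 3.86. This count ranged from 0 to 4 with the gene-end limit and list length, and was 2 without mock replicate 1, without BMH-21 replicate 1 or without BMH-21 replicate 2.

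In the imprinted cluster of distal chromosome 7, 2 of 15 members were mock-only, Th, encoding tyrosine hydroxylase, and Ins2, encoding insulin. Some genes of this cluster, not all, are expressed from 1 parental allele. Th had folds of 3.48 and 4.56 and Ins2 of 2.56 and 2.56. All 4 libraries held 10 of the 16 listed genes, among them Kcnq1ot1, the antisense RNA gene of the cluster, with 6.91 and 7.03 in the mock and 7.99 and 8.44 in the BMH-21 lists, Nap1l4, Cd81 and Kcnq1. H19, a noncoding RNA gene, had 2.95 and 3.05 in the mock and 8.49 and 8.75 in the BMH-21 lists. The count was 4 of 15 without BMH-21 replicate 2 and 1 with a stricter threshold, a 2.5 kb limit or equal list lengths.

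Distal chromosome 16, which matches part of human chromosome 21, had 3 mock-only genes of 24, Kcnj6, Mx1 and B3galt5, and 1 BMH-21-only gene, Pcp4. Kcnj6 had folds of 7.81 and 8.18, Mx1, an antiviral GTPase gene that is annotated as a pseudogene in the table used, 3.68 and 4.75, and B3galt5 3.37 and 4.12. The 20 genes held by all 4 libraries included Chaf1b, a chromatin assembly factor subunit, Ripk4, Brwd1 and Psmg1. With lists of equal length 1 of 20 was mock-only.

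Genes of genome maintenance and chromosome biology had 0 mock-only members of 22, and 20 of the 23 in the windows were held by all 4 libraries. Brca2, the recombination mediator, had folds of 14.1 and 14.4 in the mock and 9.16 and 10.3 in the BMH-21 lists. Rfc3, a clamp loader subunit, had 12.0 and 13.1 against 9.26 and 10.3, and Rtel1, the helicase that resolves telomere loops, 7.93 and 7.77 against 6.45 and 7.43. The count was 1 with a stricter threshold, with a 500 bp limit and without either BMH-21 library. The listed germ cell genes, 10 of 20 of which lie in the windows, had 0 mock-only members of 8 and all 8 were held by all 4 libraries, including Espl1, encoding separase, Nanos1 and Tdrd1. Tcstv1 and Tcstv3 had no peak.

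Olfactory and chemokine receptor genes of the windows were largely without peaks. Of 68 olfactory receptor genes on chromosomes 7 and 10, 66 had none in any library. The exceptions, Olfr806 and Olfr807, were mock-only with folds of 6.98 and 7.18 and of 8.12 and 8.84. With a 500 bp or a 2.5 kb limit 1 of them was mock-only. Of 10 chemokine receptor genes of distal chromosome 9, 9 had no peak, and Xcr1 was held by all 4 libraries, with 9.84 and 9.65 in the mock and 8.29 and 8.82 in the BMH-21 lists. Of 5 zinc finger genes of distal chromosome 2, Zfp931 was mock-only, Zfp971 and Zfp512b were held by all 4, and Zfp970 and Zfp972 had no peak. Peaks at near-identical family members are uncertain, since a read may fit more than 1 copy.

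Subtelomeric promoters rich in CpG dinucleotides were rarely mock-only. The RefSeq table gave 1090 promoter windows of 300 bases (250 before to 50 after a start) for 885 of 1077 protein-coding genes in the windows of 18 chromosomes. The mock libraries held 69.7% and 69.7% of them and the BMH-21 libraries 60.7% and 61.0%. Mock-only promoters made up 93 of 737, 12.6% (10.3 to 15.2%), against 11.3% (10.7 to 11.9%) outside the windows. The median number of CpG dinucleotides was 26 in the 618 promoters held by all 4 libraries, 7 in the 93 mock-only, 6 in the 13 BMH-21-only and 3 in the 287 without a peak. In the rest of the autosomes these medians were 23, 9, 8 and 3.

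With 26 or more CpG dinucleotides, 3 of 318 subtelomeric promoters in both mock libraries were mock-only, 0.943% (0.195 to 2.73%), against 2.80% in the rest of the autosomes. With 16 to 25 the share was 4.74% of 232 (2.39 to 8.33%) against 6.10%. With 6 to 15 it was 32.4% of 148 (24.98 to 40.6%) against 22.7%, and with 5 or fewer 79.5% of 39 (63.5 to 90.7%) against 59.7%. The intervals of the rest were 2.33 to 3.34%, 5.39 to 6.88%, 21.2 to 24.4% and 55.5 to 63.8% in the same order. They overlapped those of the windows except with 6 to 15 CpG dinucleotides, and the differences were not tested. Promoters of 1 gene or of neighbours can share a peak, so they are not independent.

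Short motifs were counted on both strands of the 300 bases as a description. The GC box (GGGCGG) was in 75.9% of the subtelomeric promoters held by all 4 libraries and in 34.4% of the mock-only ones, against 47.0% of all 20063 autosomal promoters. The ETS core (CCGGAAG) was in 24.8% and 2.15%, against 11.9% of all. In the same 2 classes of the rest of the autosomes, the GC box was in 71.7% and 48.0% and the ETS core in 19.7% and 4.70%. The contrast between the classes was thus not particular to the windows. Both motifs contain a CpG dinucleotide. The CCAAT box (CCAAT) was in 35.3% and 29.0%, against 38.1%. The telomere repeat unit (TTAGGG) was in 8.25% and 10.8%, against 10.5% of all autosomal promoters and 10.9% of all in the windows. Dhcr7 is the only printed promoter that holds this unit in the bases shown.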

How the data were processed

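ATAC-seq of 4 libraries was analysed from 1 peak list per library (2 mock, 2 BMH-21). Tools listed in the submitters' processing notes are MACS2 2.1.0, Bowtie2, deepTools, fastp and bedtools, with no roles given, and the builds listed are mm39 and mm10. Coordinates were taken as mm10 (GRCm38), since 0 autosomal peaks ran past the mm10 ends and the closest stopped 99.958 kb before one. Chromosome lengths were written by hand and no genome sequence was used. The kit is a tagmentation kit per the labels' protocols and an RNA kit in the design text. Calling parameters, removal of duplicate or mitochondrial reads, transposase shift and reads per library are not given in the sources used here, so depth is unknown.

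The deposited score, the deposited fold (a ratio to local background) and the deposited −log10 p and −log10 q of each peak, with its summit offset, are the authors' values within 1 library. They were used to rank or filter within a list, and presence was compared between lists. Genes came from a RefSeq table of GRCm38.p6 and promoter sequences from RefSeq for 18 of 19 autosomes; promoters of chromosome 18 were not used here. Regions were ranked for naming by strength, the fold's percentile averaged over the lists that hold them. The 10 strength classes cover regions held by both mock libraries and use the percentile averaged over the 2 mock lists. Group values were compared by two-sided exact permutation tests over the 3 ways to divide 4 libraries into 2 groups of 2. Intervals are exact Clopper-Pearson 95% intervals and cover counting error only, and regions and genes are not replicates.

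Named regions were the 6 strongest of each class, named genes the 10 strongest of each class (all if fewer) and up to 4 members per class of 9 gene lists, and named chromosomes the 2 highest and 2 lowest of a measure; further list members and the edge regions were named after their values were seen. Members and lists were chosen with earlier results of these data known. Of the list members, 1 chemokine receptor, 1 chromosome 16, 2 genome maintenance and 10 germ cell genes lay outside the windows or were not matched. Alternatives were peaks with −log10 q of 5 or more, equal list lengths, summit windows (100 bp to each side), a minimum overlap of 50%, windows of 2.5 and 10 Mb, gene-end limits of 500 bp and 2.5 kb, other weightings and leaving out each library. Calculations used Python 3.11.15, numpy 2.4.6, pandas 2.3.3 and scipy 1.17.1, and the scripts were tested on simulated data.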

Additional observations from a re-analysis of the deposited data

How the results depend on the processing

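Groups of 2 libraries give p of 0.33 at best, so no comparison could pass 0.05, and unequal list lengths bear on most values. The density ratio (0.317 to 0.826), the subtelomeric share of autosomal regions (-0.72 to -0.13 points) and the gene-end difference (4.65 to 19.4 points) kept their direction under every alternative run. The mock-only share was 44.2% with equal list lengths, 72.0% with summit windows, 73.3% with a minimum overlap of 50% and 64.2% for the last 2.5 Mb, and 69.5% to 73.1% without 1 library. Its difference from the rest was 0.548 points for the last 2.5 Mb and reversed to -0.80 points against the 5 to 10 Mb neighbour windows. The standardised difference reversed to 1.07 points with location alone and was -0.0878 with strength by −log10 q. The BMH-21-only share was 34.8% with equal list lengths, 34.5% with summit windows, 27.9% with a minimum overlap of 50%, 13.9% for the last 2.5 Mb, 22.7% without the last 1 Mb (chosen after seeing the data) and 23.1% to 29.1% without 1 library. Mock-only genes made up 7.76% with equal list lengths, 11.8% with a 2.5 kb limit and 16.1% to 17.5% without 1 library. The cause of these shifts was not tested. A minimum overlap and the member rule by overlap were not run for genes.

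The labels number the libraries 1 and 2 in both groups without saying that the numbers pair them, and over 8929 subtelomeric regions the differences between replicates 1 and 2 correlated at 0.00804 between the groups. With the numbers as a replicate block, the exact sign-flip test over 2 pairs gave p = 0.5, the smallest it allows, for the ratio of 0.355, the share difference of -0.49 points and the gene-end difference of 16.3 points, and no call changed.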
